A study of Mus musculus with 16 samples.

Results

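The response of WT mouse embryonic stem (ES) cells to doxorubicin was described from 8 of the 16 samples deposited for a study of Cfp1, a protein that binds unmethylated CpG DNA and belongs to a histone H3K4 methyltransferase complex. The 8 samples were chosen by their labels. They are 4 of the study's 8 biological replicates, 2 of untreated and 2 of treated WT cells, each sequenced as 2 technical replicates. The other samples come from Cfp1−/− ES cells. They served here to estimate the spread of the counts, to rank genes by level in libraries outside the comparison and to look for a different response. E14Tg2a, of strain 129/OLA, is the line of all WT samples, so the replicates are cultures of 1 line. The culture medium held the cytokine LIF and foetal bovine serum, and gelatin was the coating of the dishes. Untreated and treated cells shared genotype and medium and differed in the addition of doxorubicin for 6 hours. The final concentration is 1 μM in the deposited treatment protocol and 1 mM in the labels of the treated samples. The labels name biological replicates without saying what separates them, so the p-values here measure the spread between these cultures and not between lines.

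Doxorubicin is an anthracycline that inserts between DNA bases and traps type II topoisomerases on the DNA they have cut. The resulting breaks activate the kinases ATM and ATR, which stabilize the protein p53. p53 is a transcription factor that binds response elements near genes of cell cycle arrest, cell death and DNA repair, and near the gene of its own inhibitor Mdm2. In ES cells p53 is also known to act on genes of the pluripotent state, among them Nanog.

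Total RNA depleted of ribosomal RNA was sequenced with strand information. The counts on genes summed to 29422711 and 24158994 in the untreated and to 14880589 and 18551086 in the treated biological replicates. The deposited normalized count, which is the sum over technical replicates divided by a size factor, is the value printed for single libraries, for replicate 1 and then replicate 2. Between technical replicates chi-square divided by its degrees of freedom, over genes with at least 50 counts, was 0.998 to 1.05 in 3 of the 4 biological replicates and 9.61 in replicate 1 of treated cells. In that pair the second technical replicate held relatively more counts of genes with a short span on the chromosome. Its median log2 ratio to the first was 0.169 for the shortest and -0.0145 for the longest of 5 classes of span, and in the other 3 WT pairs every class lay between -0.00818 and 0.00766. The pair of treated Cfp1−/− replicate 1, which enters the estimate of spread, differed more, with a value of 42.9. Leaving out the second technical replicate of both gave 788 genes called higher and 451 called lower in place of the 804 and 442 given next.

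Markers of 6 cell types were compared with the ES cell label. All 8 pluripotency markers were counted, with summed normalized counts of 102305 and 85231 in untreated and 39862 and 33538 in treated cells. Tdgf1, a Nodal co-receptor, was the most abundant of them in both untreated libraries, and Pou5f1 in both treated ones. Under TMM 7 of the 8 fell with treatment, of which Pou5f1 and Utf1 did not pass the test under total counts. Pou5f1, the gene of Oct4, had 16753 and 13807 normalized counts in untreated replicates 1 and 2 and 12068 and 10734 in treated replicates 1 and 2. The treated pair lay below the untreated pair, and the log2 fold change was -0.38 ± 0.136 (standard error, as after every ± on log2 values) with an adjusted p of 0.0435 from edgeR. Scaled by total counts it was -0.06, so for Pou5f1 the fall depends on the scaling. Dppa5a was the marker that did not pass the test. The 9 markers of primitive endoderm summed to 2158 and 1459 counts in untreated and 1395 and 1185 in treated cells, most of it from the laminin gene Lama1, and Ttr was at the floor of 3 counts. Lama1 went from 1965 and 1204 to 1013 and 816, a fall that passed the test under TMM (adjusted p 0.0162 from edgeR). Pdgfra rose from 22.9 and 32.3 to 238 and 193, and Afp, listed at 0 in both untreated libraries, had 5.24 and 7.39 in treated ones. The 6 matched markers of neuroectoderm summed to 3749 and 4691 in untreated and 2011 and 4243 in treated cells, and Sox1 and Map2 were not analysed here. Nes, an intermediate filament gene, was the most abundant over the 4 libraries together, though Pax6 exceeded it in untreated replicate 1. Pax6 went from 1761 and 738 to 74.7 and 27.5, while Nes had 1026 and 3036 untreated and 1081 and 3318 treated counts. Markers of mesendoderm were low, with sums of 180.1 and 353 in untreated and 127 and 157 in treated cells. Eomes had the most counts over the 4 libraries together, though T exceeded it in untreated replicate 2 (167 against 161). Eomes did not pass the test (adjusted p 0.0691, and 0.03 with a replicate block). T fell from 42.5 and 167 to 13.1 and 13.7, Mixl1 rose from 6.80 and 14.6 to 21.0 and 34.9, and Mesp1, listed at 0 in both untreated libraries, had 34.1 and 33.8 in treated ones. The 6 trophoblast markers summed to 90.9 and 186 in untreated and to 269.8 and 510.2 in treated cells. Most of this was Krt7, an epithelial keratin, and Plac1 was at the floor. The 7 markers of fibroblast feeder cells summed to 242 and 222 in untreated and 515 and 361 in treated cells. Col1a1 was the most abundant over the 4 libraries together, and Lum was at the floor. Col1a1 went from 90.9 and 55.2 to 365 and 201, while Col1a2 and Col3a1 were lower in both treated libraries. Among the trophoblast markers Hand1 rose from 5.95 and 8.34 to 35.4 and 91.9 and Krt7 from 59.5 and 125 to 196 and 374. Cdx2, which was not tested, went from 11.9 and 30.2 to 0 and 2.11. These sums were far under those of the pluripotency markers, and their part in the results was not tested. In RNA from whole cultures, fewer cells of a type and less RNA per cell cannot be told apart.

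A gene was called when its adjusted p was under 0.05, its fold change at least 2.5 and its mean over the 4 libraries at least 200 normalized counts. Of 15758 genes tested, 804 (5.1%) were called higher and 442 (2.8%) lower in treated cells, 1246 (7.91%) in all. By adjusted p alone, 4174 genes (26.5%) rose and 3433 (21.8%) fell, together 7607 (48.3%). The balance of the directions depends on the scaling. With TMM, which takes most genes as unchanged, 64.5% of the called genes were higher, and with scaling by total counts 84.4%, since the median log2 fold change of all genes moved from 0.06 to 0.37, a shift of 0.31. By adjusted p alone 5731 of the 15758 genes rose and 1836 fell with total counts. The share higher among the genes that passed was 54.9% with TMM and 75.7% with total counts. For this reason each gene group is given with its median under TMM and then, in parentheses, its median under total counts and the numbers of its genes that rose and fell there, to be read against these medians and shares of all genes. Genes at 0 in both untreated libraries, set at the floor of 3 normalized counts, left the median of every list unmoved at 2 decimals and that of all genes at 0.05. A single library held between 14912 and 15915 genes above the floor. The 100 genes with the most counts took 16.8% of the counts in each untreated library and 15.4% and 15.7% in the treated ones. The genes called higher took 1.23% and 1.26% of the counts of the untreated libraries and 6.66% and 6.12% of the treated ones. Those called lower took 8.72% and 8.25% before and 3.42% and 3.38% after treatment. The rule that selects these genes sets the direction of both shares.

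**Figure D1:**
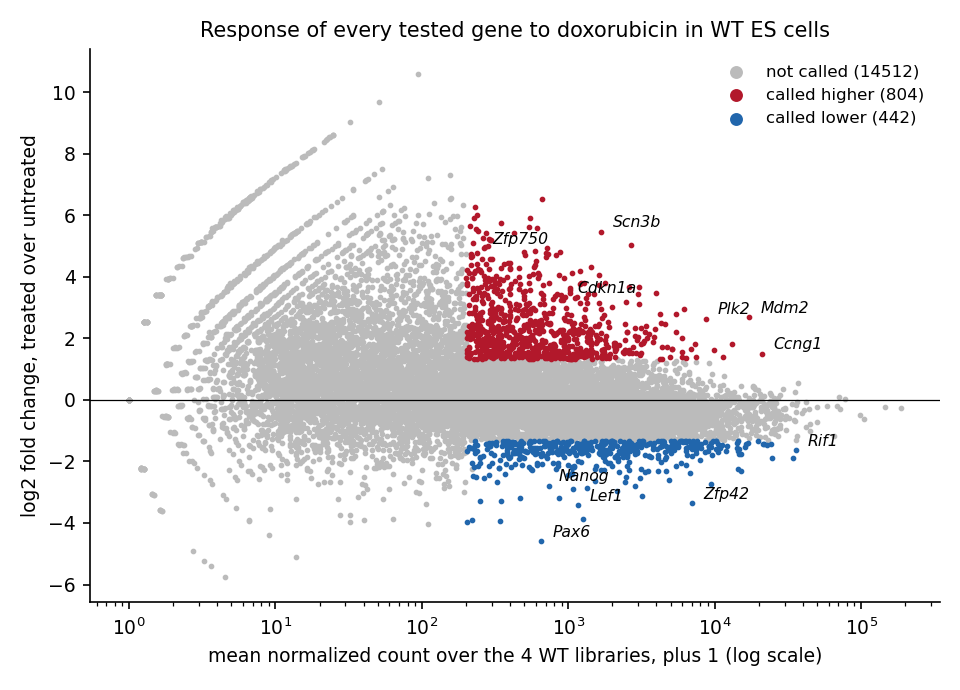
Log2 fold change of each of the 15758 genes tested, treated over untreated WT cells under TMM, against the mean normalized count over the 4 WT libraries plus 1, on a log axis. Red points are the 804 genes called higher, which make up 64.5% of the called genes (84.4% under scaling by total counts), and blue points are the 442 called lower. Fold changes on the curved lines at the left come from groups with 0 or few counts and depend on the prior count.

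Among called genes with a mean of at least 1000 counts, the steepest rise was that of Scn3b, which encodes a beta subunit of voltage-gated sodium channels. Scn3b (chromosome 9, 40076801 to 40099203 on NCBIm37) had 73.9 and 79.2 normalized counts in untreated replicates 1 and 2 and 3551 and 3019.8 in treated replicates 1 and 2. Both treated libraries lay far above both untreated ones, with a log2 fold change of 5.47 ± 0.174 (adjusted p = 8.03e-07). Slc4a11, a transporter of the bicarbonate transporter family, rose from 157 and 173 to 5558 and 4830.2, a log2 fold change of 5.02 ± 0.232. Ddit4l, a relative of the mTOR inhibitor Ddit4, rose from 133 and 152 to 2719 and 2734 (4.31 ± 0.186). Cnga3 encodes a cyclic nucleotide-gated channel known from cone cells and rose from 133 and 125 to 2539.9 and 2011 (4.18 ± 0.2). In each of these genes the treated replicates lay close together and the untreated ones under 200 counts. Tap1, a peptide transporter of antigen presentation, had 75.6 and 162 untreated and 1833 and 2152 treated counts. Its untreated libraries differed by a larger ratio than its treated ones and did not reach them, and the log2 fold change was 4.13 ± 0.323. Ahnak2, a gene of a giant scaffold protein, had a log2 fold change of 4.07 ± 0.3. Galnt6, a glycosyltransferase that starts mucin-type O-glycans, followed with 3.81 ± 0.174. The log2 fold changes of Iffo1, Klhl26, Tbc1d8 and Ckmt1 lay between 3.73 and 3.80. The twelfth was Rbl2, described with the retinoblastoma family.

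The 3 steepest falls among genes with as many counts were of transcription factors. Zic5, a zinc finger factor of the early nervous system, had 2377 and 2322 normalized counts in untreated replicates 1 and 2 and 144 and 164 in treated replicates 1 and 2. The replicates of each group lay close together and the groups were far apart, with a log2 fold change of -3.88 ± 0.373 (adjusted p = 3.91e-05). Lef1, a DNA-binding partner of β-catenin, had 1746 and 2506 untreated and 173 and 210.2 treated counts (-3.42 ± 0.449). Zfp42, the pluripotency marker also called Rex1, had 15662 and 9967 untreated and 1531 and 894 treated counts (-3.36 ± 0.354). For both genes the treated libraries were far below the untreated ones, and for Zfp42 replicate 1 was the higher one in each group. Sfmbt2, a Polycomb-like protein with MBT domains, had 4698 and 6776 untreated and 579 and 705 treated counts (-3.11 ± 0.214). Nrf1, an activator of nuclear genes for mitochondrial proteins, had 4035 and 3648 untreated and 496 and 456 treated counts (-2.97 ± 0.151). The treated libraries of these genes also lay below the untreated ones without overlap. F2rl1, a receptor cleaved by proteases, fell by 2.88 on the log2 scale, and Nr0b1, an orphan nuclear receptor of the pluripotency network, by 2.87. Fam169a, a gene of little known function, fell from 17003 and 15790.0 to 2638 and 2185 (-2.72 ± 0.177). Dusp27, an atypical phosphatase of muscle, had a log2 fold change of -2.66 ± 0.401. Ptch1, the Hedgehog receptor, and the linker histone Hist1h1d are described with their groups.

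Ranked by counts rather than by ratio, the called genes that gained most were Mdm2, Plk2, Trp53inp1, Ccng1 and Mlec, of which the first 4 belong to the p53 lists. Mlec, a carbohydrate-binding protein of the endoplasmic reticulum, rose from 7037 and 5981 to 16816 and 15952. Among the called genes that lost most counts were Rif1, L1td1, Hist2h2bb and Ddx3x. Rif1, a protein of break repair and replication timing that is abundant in ES cells, had 58539.9 and 51931 normalized counts in untreated replicates 1 and 2 and 18513 and 15735 in treated replicates 1 and 2. The treated values were below both untreated ones, with a log2 fold change of -1.64 ± 0.167 (adjusted p = 5.38e-05). L1td1, an RNA-binding protein of pluripotent cells, fell from 37837 and 30118 to 13727 and 9903 (-1.48 ± 0.257). Ddx3x, an RNA helicase of translation encoded on the X chromosome, fell from 52396 and 57352 to 13814 and 14569 (-1.90 ± 0.13). In these genes every treated library was lower than every untreated one.

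Trp53, the gene of p53 itself, had 2473 and 2283 normalized counts in untreated replicates 1 and 2 and 2636 and 2286 in treated replicates 1 and 2. The groups overlapped, and the log2 fold change of 0.10 ± 0.148 did not pass the test (adjusted p = 0.626). Among 12 genes of p53 and its feedback regulators 7 rose and 4 fell, with a median log2 fold change of 0.60 (0.91, 8 and 2). Mdm2, the ubiquitin ligase that marks p53 for destruction, had 4692 and 4794 untreated and 32818 and 26307 treated counts, and the treated libraries held several times the counts of the untreated ones (2.69 ± 0.177). Ppm1d, the phosphatase Wip1 that removes phosphates set by ATM, rose from 791 and 698 to 2206 and 1896 (1.51 ± 0.153). Ccng1, a cyclin that works with Mdm2, rose from 10371 and 12007 to 28510.5 and 32771 (1.50 ± 0.135). Trp73, the gene of the p53 relative p73, rose from 53.5 and 71.9 to 1991 and 1405, the steepest change in the list (4.81 ± 0.239, adjusted p = 1.89e-06). The treated libraries of these 3 genes lay above the untreated ones without overlap. The genes that fell encode other regulators of p53 protein. Trim24, a ubiquitin ligase for p53, had a log2 fold change of -1.50 ± 0.176. The deacetylase Sirt1 had -1.07 ± 0.195, the deubiquitinase Usp7 -0.48 ± 0.119 and the ligase Rfwd2, also called Cop1, -0.41 ± 0.132.

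Genes listed here as targets of p53 were divided by function, and in each division the share that rose was far above the 26.5% of all genes. Binding of p53 to the members was not tested here. Of 16 targets of growth arrest 10 rose (62.5%) and 1 fell, with a median of 1.46 (1.78, 12 and 1). Cdkn1a, the inhibitor p21 of cyclin-dependent kinases, had 131 and 226 normalized counts in untreated replicates 1 and 2 and 1805 and 1655 in treated replicates 1 and 2. The treated replicates were near each other and several times higher than both untreated ones (3.33 ± 0.257). Btg2, an antiproliferative adaptor of mRNA decay, rose from 415 and 628 to 4840.2 and 6053 (3.43 ± 0.207). Its relative Btg1 rose from 411 and 532 to 2186 and 1377 (1.96 ± 0.245). Plk2, a polo-like kinase of the stress response, rose from 2102 and 2858 to 12744 and 17207 (2.64 ± 0.193). All treated values of these genes were above all untreated ones. Trp53inp1, which promotes p53 phosphorylation and autophagy, rose from 5513 and 6383 to 20634 and 19755 (1.81 ± 0.139), and Sesn2, an inhibitor of mTORC1 signalling, from 1215 and 1245 to 3932 and 3330.3 (1.61 ± 0.148). The member that fell (2 with a replicate block) was Cdkn1b, the inhibitor p27, from 964 and 1071 to 317 and 281 (-1.72 ± 0.237).

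Of 19 targets that promote cell death 14 rose (73.7%) and none fell at an adjusted p under 0.05 in edgeR (0 in DESeq2, 1 at an unadjusted p under 0.05), with a median of 1.24 (1.56, 16 and 0). Apaf1, the core of the apoptosome, had 1308 and 1629 normalized counts in untreated replicates 1 and 2 and 11639 and 10160.0 in treated replicates 1 and 2. Pmaip1, the BH3-only protein Noxa, had 1108 and 1699 untreated and 7879 and 10967 treated counts. Lrdd, the gene of the PIDD death domain protein, had 287 and 270.0 untreated and 2019.9 and 1620.3 treated counts. In all 3 the treated libraries stood apart above the untreated ones, with log2 fold changes of 2.94 ± 0.159, 2.79 ± 0.23 and 2.75 ± 0.208. Perp, a membrane protein of desmosomes, rose from 646 and 1204 to 3318 and 4892 (adjusted p = 0.000316). Fas, a death receptor, had 13.6 and 13.6 untreated and 309 and 400.3 treated counts, a steep rise from a low level (4.74 ± 0.424), and its mean was under the 200 counts required for a call. The BH3-only gene Bbc3, or Puma, rose from 219 and 312 to 735 and 736 (1.52 ± 0.22), and the death receptor gene Tnfrsf10b from 660.0 and 687 to 1568 and 1522 (1.24 ± 0.148). Eda2r, a receptor of the same superfamily, rose from 3968 and 3896 to 7837 and 9260.0 (1.17 ± 0.2).

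Of 26 targets in DNA repair and metabolism 18 rose (69.2%) and none fell at an adjusted p under 0.05 in edgeR (the 0 is also 0 in DESeq2 and unadjusted), with a median of 1.56 (1.87, 23 and 0). Ephx1, an epoxide hydrolase of xenobiotic metabolism, had 55.2 and 58.4 normalized counts in untreated replicates 1 and 2 and 982 and 625 in treated replicates 1 and 2. Lpin1, a phosphatase of lipid synthesis and fat oxidation, had 465 and 548 untreated and 4769 and 4056 treated counts. Dcxr, a reductase of the xylulose pathway, had 104 and 116 untreated and 910.4 and 914 treated counts. The groups did not overlap in any of these, and the log2 fold changes were 3.87 ± 0.278, 3.17 ± 0.149 and 3.10 ± 0.226. Ddit4, an inhibitor of mTORC1 also known as Redd1, rose from 129 and 245 to 1309 and 1256 (2.83 ± 0.271). The repair endonuclease Ercc5 rose from 1505 and 1827 to 5975 and 5967 (1.89 ± 0.139) and the translesion polymerase Polk from 993 and 1113 to 3323 and 2848 (1.60 ± 0.142). Rrm2b, the p53-dependent subunit of ribonucleotide reductase, had a smaller log2 fold change of 0.97 ± 0.188.

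Promoter windows of RefSeq on GRCm38.p6, from 250 bases before to 50 after each gene start, were searched on both strands for the p53 response element without a spacer, over 20 bases with at most 1 mismatch. It was found in 22 of the 27025 genes of the promoter table (0.0814%), in 7 of the 12059 genes tested that have a promoter there, and in 4 of the 60 members of the p53 lists that do. These 4 sequences are shown because they belong to target genes of the factor that the lists are about, and the match is in capitals. The stretches are Ccng1 at chr11:40755432-40755511 on the minus strand, Cdkn1a at chr17:29090898-29090977, Gtse1 at chr15:85859915-85859994 and Rps27l at chr9:66946266-66946345, these 3 on the plus strand.
Ccng1: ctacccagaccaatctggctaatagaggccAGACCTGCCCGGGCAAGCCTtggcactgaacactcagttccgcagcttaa
Cdkn1a: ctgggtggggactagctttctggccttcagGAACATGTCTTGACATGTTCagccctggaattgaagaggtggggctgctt
Gtse1: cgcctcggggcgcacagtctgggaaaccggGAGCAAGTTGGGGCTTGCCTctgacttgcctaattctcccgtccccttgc
Rps27l: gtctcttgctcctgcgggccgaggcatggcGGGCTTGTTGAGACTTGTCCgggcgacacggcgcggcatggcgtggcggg
Ccng1 and Cdkn1a were described above. Gtse1, which carries p53 out of the nucleus, rose from 2912 and 2862 to 6535 and 6259 (1.19 ± 0.119), and its treated libraries lay above the untreated ones. Rps27l, a ribosomal protein relative that binds Mdm2, had 1988 and 2160.0 untreated and 1987 and 2828 treated counts. These groups overlapped, and its log2 fold change of 0.26 ± 0.18 did not pass the test. The other tested genes with a match were Calhm2 (3.23 ± 0.375), Spnb4 (1.64 ± 0.278) and Mthfd1 (0.31 ± 0.132), which did not pass the test (for Mthfd1 0.0485 with a replicate block). Gtse1, Rps27l, Calhm2, Spnb4 and Mthfd1 are named for the match and were chosen after their values were seen. A match is a description of these letters and not evidence of binding, and distal or intronic elements lie outside the window.

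A further list held genes that oppose cell death. Of 12 antiapoptotic members of the Bcl2 family and inhibitors of apoptosis, 11 were tested, none rose and 2 fell at an adjusted p under 0.05 in edgeR (the 0 is also 0 in DESeq2 and unadjusted), with a median of -0.28 (0.04, 0 and 1). Birc2, a ubiquitin ligase of TNF receptor signalling, fell from 1997 and 2092 to 897 and 1027 (-1.04 ± 0.136). Birc6, a giant inhibitor of caspases, fell from 26572 and 27649 to 17280.5 and 16992 (-0.62 ± 0.135). These 2 falls are those under TMM, and under total counts only 1 gene of the list fell. Bcl2l1, the gene of Bcl-xL, had 949.6 and 863 untreated and 747 and 799.6 treated counts and a log2 fold change of -0.18 ± 0.222 that did not pass the test. Bcl2 itself was low, at 50.1 and 155 untreated and 40.6 and 84.5 treated counts, with overlapping groups.

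**Figure D2:**
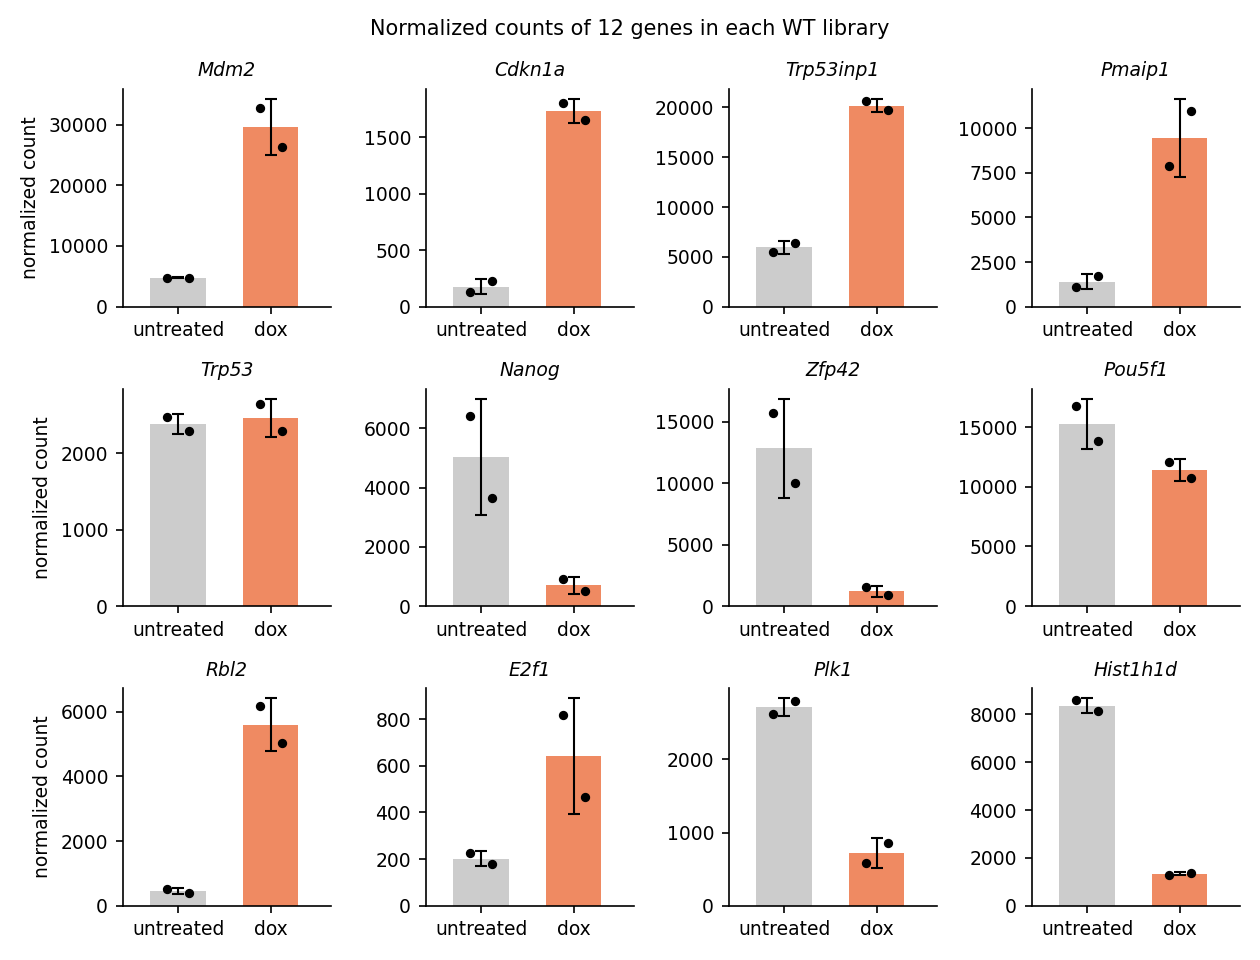
Normalized counts of 12 genes in each WT library (points), with group means (bars, from 0) and standard deviations (error bars, n = 2) for untreated and doxorubicin-treated (dox) cells. Mdm2, Cdkn1a, Trp53inp1, Pmaip1, Rbl2 and E2f1 were higher in both treated libraries, Trp53 overlapped between the groups, and the other 5 genes were lower in both treated libraries, with the same sign of each log2 fold change under scaling by total counts.

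The secreted Wnt signals and their receptors were listed apart. All 19 Wnt genes were found and 16 were tested, of which 11 rose (68.8%) and 1 fell, with a median of 2.33 (2.64, 12 and 1). Most were near the floor without the drug and could enter the test through the treated group alone. Among the 7 that were counted in both untreated Cfp1−/− libraries 4 rose and 1 fell, with a median of 2.39. Wnt9a had 37.4 and 33.4 normalized counts in untreated replicates 1 and 2 and 1107 and 815 in treated replicates 1 and 2. Wnt3, a ligand with a role in self-renewal and gastrulation, had 22.1 and 95.9 untreated and 597 and 698 treated counts. Both ligands were well above their untreated values in each treated library, with log2 fold changes of 4.80 ± 0.273 and 3.53 ± 0.495. Of 32 Wnt receptors, transducers and targets 6 rose and 6 fell, with a median of -0.04 (0.27, 10 and 5). With a replicate block 10 fell. Next to Lef1, the falls included those of the receptor Fzd7 (-1.19 ± 0.154), the feedback target Axin2 (-1.17 ± 0.304) and the secreted antagonist Sfrp1 (-1.02 ± 0.33). The receptor Fzd10 rose from 95.1 and 147 to 232 and 364 (1.36 ± 0.269). Ctnnb1, the gene of β-catenin and the most abundant member, had 27344 and 26343 untreated and 25090.3 and 24149 treated counts and did not pass the test (-0.08 ± 0.125).

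Fgf4 and ERK signalling move ES cells toward differentiation. In a list of 27 genes of FGF and ERK signalling 25 were tested, 3 rose and 13 fell (52.0%), with a median of -0.49 (-0.17, 5 and 10). Fgf4, the growth factor that drives ERK signalling in ES cells, had 3432 and 2317 normalized counts in untreated replicates 1 and 2 and 1478 and 708 in treated replicates 1 and 2. The treated libraries were lower (-1.35 ± 0.297), and replicate 1 was the higher one in each group. Inhibitors that ERK signalling itself induces were among the falls. Spry4 fell from 3963 and 2606 to 930.0 and 499 (-2.16 ± 0.52), Spry2 from 1420.2 and 1133 to 551 and 215 (-1.70 ± 0.462) and Spred1 from 9523 and 6107 to 2870.1 and 2426 (-1.52 ± 0.213). The receptor Fgfr1 rose from 1571 and 1909 to 3013 and 2575 (0.73 ± 0.175).

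In a list of 35 genes of Nodal, activin and BMP signalling 34 were tested, 9 rose and 8 fell (26.5% and 23.5%, near the shares of all genes), with a median of 0.21 (0.52, 12 and 5). The medians of replicates 1 and 2 taken singly were -0.07 and 0.12. Nodal and its co-receptor moved apart. Nodal, a ligand of the early embryo, rose from 467 and 566 to 1579.8 and 1389 (1.57 ± 0.169). Tdgf1, the co-receptor, fell from 24987 and 22620.1 to 5048 and 4711 (-2.24 ± 0.142). Lefty2, an antagonist of Nodal, fell from 2033 and 3839 to 651 and 1118 (-1.68 ± 0.358). Smad3, a transducer of activin and Nodal signals, rose from 364 and 428 to 1766 and 1715 (2.18 ± 0.152). Among the BMP ligands Bmp7 rose from 43.3 and 37.5 to 589 and 305 (3.50 ± 0.346) and Bmp4 fell from 631 and 277 to 68.1 and 23.2 (-3.30 ± 0.808). In all 6 of these genes the groups did not overlap. The ligand Tgfb2 rose (1.35 ± 0.286) and the ligand Gdf3 fell (-1.31 ± 0.234).

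Among 26 genes of Notch and Hedgehog signalling 22 were tested, 10 rose (45.5%) and 3 fell, with a median of 0.64 (0.95, 11 and 1). With a replicate block 5 fell. Some receptors and ligands of Notch rose, while Notch2 and Notch4 had lower counts in both treated libraries and did not pass the test (adjusted p 0.0452 and 0.00118 with a replicate block). Notch1, a receptor, had 1169 and 963 normalized counts in untreated replicates 1 and 2 and 5537 and 4827 in treated replicates 1 and 2. Notch3 had 617 and 1236 untreated and 3609 and 2891 treated counts. The ligand gene Jag2 had 510.5 and 529 untreated and 2784 and 2580.4 treated counts. All treated values were above all untreated ones, with log2 fold changes of 2.33 ± 0.183, 1.86 ± 0.277 and 2.41 ± 0.135. The ligand gene Dll1 rose from 124 and 192 to 532 and 717 (2.04 ± 0.329). Rbpj, the DNA-binding partner of cleaved Notch, fell from 10215 and 4885 to 3959 and 2005 (-1.30 ± 0.405). On the Hedgehog side the receptor and target Ptch1 fell from 3032 and 2204 to 538 and 287 (-2.62 ± 0.274) and the factor Gli2 from 1207 and 596 to 445 and 136 (-1.60 ± 0.528). Of 19 ephrins and Eph receptors 18 were tested, 6 rose and 2 fell, with a median of 0.54 (0.85, 7 and 1). The ligand Efnb2 (0.84 ± 0.236) and the receptor Ephb2 (0.96 ± 0.207) rose, and the receptors Ephb4 (-1.57 ± 0.178) and Epha4 (-0.74 ± 0.232) fell.

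LIF holds these cultures in the pluripotent state through the receptor pair Lifr and Il6st and the factor Stat3. Of 15 genes of this pathway 5 rose and 7 fell, with a median of 0.16 (0.48, 7 and 6), which is negative over the 14 counted in untreated Cfp1−/− cells (-0.30). Lif itself had 69.7 and 69.8 normalized counts in untreated replicates 1 and 2 and 537 and 491 in treated replicates 1 and 2, a rise from a low level in both treated libraries (2.93 ± 0.202). Lifr, its receptor, fell from 8514 and 6155 to 2753 and 1846 (-1.63 ± 0.217). Genes that Stat3 can induce went both ways, with rises of the suppressors Socs1 (1.79) and Cish (1.00) and a fall of Socs3 (-0.84), 3 genes added to the named ones after their values were seen. The kinase gene Pim1 fell from 1622 and 1953 to 367 and 290.5 (-2.40 ± 0.298), its relative Pim3 from 1907 and 1774 to 752 and 558 (-1.45 ± 0.183) and the signalling suppressor Socs2 from 2663 and 2398 to 641 and 463 (-2.15 ± 0.255). In the TNF receptor superfamily 22 of 27 genes were tested, 11 rose (50.0%) and none fell at an adjusted p under 0.05 in edgeR (the 0 is also 0 in DESeq2 and unadjusted), with a median of 0.87 (1.18, 14 and 0). Over its 19 members counted in untreated Cfp1−/− cells 8 rose and none fell, with a median of 0.64. Beside Eda2r, Tnfrsf10b and Fas, the receptors Relt (1.58 ± 0.27) and Tnfrsf19 (0.78 ± 0.237) rose.

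The naive pluripotent state is kept by a network of transcription factors and their cofactors. Of 32 listed genes 31 were tested, none rose and 26 fell (83.9%) at an adjusted p under 0.05 in edgeR (the 0 is also 0 in DESeq2 and unadjusted), against 21.8% of all genes. Their median was -1.48 (-1.16, 0 and 21). Nanog, a central factor of this network, had 6419 and 3651 normalized counts in untreated replicates 1 and 2 and 914 and 506 in treated replicates 1 and 2. Nr0b1 had 3309 and 1389.6 untreated and 435 and 191 treated counts. Nr5a2, an orphan nuclear receptor that binds the Pou5f1 gene, had 1657 and 920.5 untreated and 250.2 and 112 treated counts. Every treated value was below every untreated one, and replicate 1 was the higher one in each group. Log2 fold changes were -2.78 ± 0.371, -2.87 ± 0.442 and -2.80 ± 0.427. Mycn, the Myc gene most abundant in ES cells, fell from 4728 and 5754 to 923 and 1204 (-2.25 ± 0.195). Smaller log2 fold changes were among the members too, with -0.38 for Pou5f1 and -0.06 for Dppa5a, and 5 of the 31 did not pass the test.

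Regulators of the primed state and of the germ layers mark the exit from the naive state. Of 30 listed 24 were tested, 4 rose and 8 fell, with a median of 0.01 (0.21, 4 and 8). The genes that rose were near the floor before treatment. Over the 17 counted in untreated Cfp1−/− cells 1 rose and 8 fell, with a median of -1.21. Pax6, a factor of eye and brain, had the steepest fall of the list (-4.60 ± 0.512). Otx2, a factor of the primed epiblast, had 1597 and 1532 normalized counts in untreated replicates 1 and 2 and 159.8 and 170.1 in treated replicates 1 and 2. Foxd3, a forkhead factor of epiblast and neural crest, had 499 and 319 untreated and 31.4 and 22.2 treated counts. Zic2, a zinc finger factor related to Zic5, had 647 and 629 untreated and 31.4 and 47.5 treated counts. The treated libraries were lower without overlap in each, with log2 fold changes of -3.20 ± 0.307, -3.89 ± 0.574 and -3.95 ± 0.253. Fgf5, a growth factor of the primed epiblast, had 110.4 and 658 untreated and 9.17 and 37.0 treated counts, so that the untreated cultures themselves differed widely (-3.96 ± 0.949). Dnmt3b, a de novo DNA methyltransferase, fell from 13066 and 22781 to 4129 and 8259 (-1.49 ± 0.324).

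Genes known from the 2-cell embryo and a rare ES cell state were low. Of 23 listed 16 were found and 12 tested, 5 rose (3 in DESeq2) and none fell at an adjusted p under 0.05 in edgeR (the 0 is also 0 in DESeq2 and unadjusted), with a median of 1.23 (1.53, 7 and 0). Zscan4c, a gene of telomere upkeep in that state, had 7.64 and 8.34 untreated and 13.1 and 25.3 treated counts. It has near-identical copies, so its counts are uncertain. Of 23 tested germline and meiosis genes 6 rose (26.1%, near the share of all genes) and 2 fell (8.70%), with a median of 0.20 (0.51, 9 and 1). Tex19.1, a gene of germ cells and ES cells, rose from 2179.6 and 1589 to 2795 and 2994 (0.67 ± 0.164), and Sycp2 of the synaptonemal complex rose (0.90 ± 0.193). Sycp3 of the same complex fell (-0.52 ± 0.156), as did the methyltransferase cofactor Dnmt3l from 8045 and 7661 to 2908 and 3332 (-1.29 ± 0.141). Dazl (0.09 ± 0.28) and Ddx4 (-0.14 ± 0.268) did not pass the test.

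Immediate-early genes mostly code for transcription factors of the first response to stimuli. Of 30 genes 28 were tested, 13 rose (46.4%) and 4 fell, with a median of 0.74 (1.05, 15 and 2). Fosl1, a partner of Jun in AP-1 (chromosome 19, 5447703 to 5455945), had 22.9 and 20.8 normalized counts in untreated replicates 1 and 2 and 1157 and 939 in treated replicates 1 and 2. This was among the steepest rises of all called genes, with groups far apart (5.61 ± 0.225, adjusted p = 1.65e-06). Fos rose from 84.1 and 268 to 858 and 988 (2.45 ± 0.472), Egr1 from 233 and 377 to 1116 and 821 (1.72 ± 0.241) and the stress factor gene Atf3 from 31.4 and 132 to 211 and 494 (2.17 ± 0.603). Replicate 1 was the lower one of the untreated pair in these 3 genes. Klf6, a zinc finger factor, fell from 3285 and 6186 to 828 and 2304 (-1.55 ± 0.423) and Ctgf, a secreted matrix protein, from 996 and 1228 to 409 and 492 (-1.26 ± 0.269).

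Mycn and some antagonists of Myc factors moved in opposite directions. Among 12 genes of the Myc, Max and Mxd family 3 rose and 5 fell, with a median of -0.42 (-0.11, 4 and 3). Mxd1, which competes with Myc for Max and represses, had 280.3 and 189 normalized counts in untreated replicates 1 and 2 and 1123 and 1060.5 in treated replicates 1 and 2. Mxd4, a relative of Mxd1, had 104 and 68.8 untreated and 354 and 393 treated counts. Both rose in each treated library (2.26 ± 0.203 and 2.15 ± 0.26). Beside Mycn, Mga, a repressor that binds the same partner, fell from 26266 and 22799 to 9604 and 8492 (-1.39 ± 0.143). Myc itself had 528 and 376 untreated and 316 and 155 treated counts, lower in both treated libraries but with a log2 fold change of -0.90 ± 0.508 that did not pass the test (adjusted p = 0.171, 0.00363 with a replicate block). The sequence CACGTG, an E-box that Myc and Max can bind, was in the promoter window of 9.70% of genes called higher and 13.3% of those called lower, against 11.2% of the genes tested. TGACTCA, a sequence AP-1 can bind, was in 5.45% and 2.60%, against 4.64%.

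The retinoblastoma family holds E2F factors in check, and 2 of its members rose. Rbl2, the gene of p130 (chromosome 8, 93593956 to 93647743), had 527 and 378 normalized counts in untreated replicates 1 and 2 and 6180.2 and 5032 in treated replicates 1 and 2. Rb1, the retinoblastoma gene, had 471 and 445 untreated and 3288 and 2773 treated counts. The treated values were several times the untreated ones in each replicate (3.67 ± 0.195 and 2.77 ± 0.191). Among all 18 genes of the E2F and retinoblastoma family 4 rose and 7 fell, with a median of -0.33 (-0.01, 5 and 3). The activator E2f1 rose from 224 and 178 to 816 and 466 (1.71 ± 0.286) and the repressor E2f7 from 893 and 1113 to 1823 and 1932 (0.95 ± 0.151). The repressor E2f8 fell from 2080.2 and 1712 to 795 and 433 (-1.58 ± 0.301) and Mybl2, an activator of genes of G2 and mitosis, from 10602 and 7668 to 4300.5 and 2653 (-1.35 ± 0.282).

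Of 19 G1 and S cyclins, kinases and inhibitors 18 were tested, 3 rose and 7 fell, with a median of -0.26 (0.05, 4 and 6). The rises, beside Cdkn1a, were of the Cdk4 and Cdk6 inhibitor Cdkn2b, from 70.5 and 64.6 to 376 and 437 (2.63 ± 0.226), and of Fbxw7, the ubiquitin ligase subunit for cyclin E and Myc, from 2953 and 2673 to 7055 and 7229 (1.39 ± 0.123). Cdk6 fell from 1192 and 1353 to 284 and 316 (-2.04 ± 0.189). The cyclin E gene Ccne1 fell from 10677 and 8964 to 2972 and 3643 (-1.52 ± 0.149) and the cyclin D gene Ccnd1 from 3284 and 3985 to 1104 and 1441 (-1.47 ± 0.238). Skp2, the ubiquitin ligase subunit for p27, fell from 2908 and 2898 to 937 and 1007 (-1.53 ± 0.142). The treated libraries lay outside the untreated range in all of these.

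S phase was described by the genes of DNA replication and nucleotide supply. Of 53 tested genes 2 rose and 29 fell, with a median of -0.45 (-0.14, 6 and 7). Dbf4, the activator of the Cdc7 kinase, was the called member, with 10301 and 9999 normalized counts in untreated replicates 1 and 2 and 2647 and 3007 in treated replicates 1 and 2 and treated libraries far below the untreated ones (-1.80 ± 0.16). The licensing inhibitor Gmnn fell from 3144 and 3183 to 1089 and 1495 (-1.24 ± 0.172). The helicase gene Mcm2 had -0.43 ± 0.125 and the clamp gene Pcna -0.45 ± 0.163. Both genes that rose encode small subunits of ribonucleotide reductase, Rrm2 from 4295 and 5499 to 7300.2 and 6924 (0.58 ± 0.176) and Rrm2b.

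Replication-dependent histone genes are transcribed in S phase and had the lowest median of the lists. Of 67 genes 65 were tested, none rose and 58 fell (89.2%) at an adjusted p under 0.05 in edgeR (the 0 is also 0 in DESeq2 and unadjusted), 51 of them at least 2.5-fold and 44 of these with enough counts for a call, with a median of -1.71 (-1.39, 0 and 55). Many of these genes have near-identical copies whose shared reads are left out, so single members are uncertain. Linker histones led the list. Hist1h1d had 8582 and 8154 normalized counts in untreated replicates 1 and 2 and 1289 and 1372 in treated replicates 1 and 2. Hist1h1c had 7003 and 6806 untreated and 1328 and 1338 treated counts. Hist1h1e had 2653 and 3189 untreated and 593 and 562 treated counts. In each, the treated replicates lay close together and far below the untreated ones, with log2 fold changes of -2.61 ± 0.129, -2.33 ± 0.12 and -2.29 ± 0.15. Hist2h2bb, an H2B gene and the most abundant member, fell from 40396 and 38022 to 9966 and 10589.9 (-1.89 ± 0.137). Other histone genes are expressed also outside S phase. Of 11 replacement histone genes 1 rose and 3 fell, with a median of -0.07 (0.24, 3 and 2). H3f3b, an H3.3 gene, rose from 15537 and 15994 to 18788 and 23286 (0.46 ± 0.154). H2afx, the histone phosphorylated at breaks, whose mRNA also has a replication-dependent form, fell from 5639 and 5623 to 2123 and 1976 (-1.41 ± 0.209).

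Genes of G2 and mitosis are transcribed late in the cell cycle. Of 49 genes 2 rose and 38 fell (77.6%), with a median of -0.86 (-0.54, 3 and 34). Plk1, the polo-like kinase of mitotic entry, had 2625 and 2799 normalized counts in untreated replicates 1 and 2 and 579 and 861 in treated replicates 1 and 2. Fbxo5, or Emi1, an inhibitor of the anaphase-promoting complex, had 2377 and 2649.9 untreated and 651 and 828 treated counts. Prc1, a bundler of spindle microtubules, had 8604 and 7598 untreated and 2069.7 and 2984 treated counts. The treated libraries were lower throughout, replicate 1 more so than replicate 2, with log2 fold changes of -1.86 ± 0.205, -1.72 ± 0.171 and -1.63 ± 0.208. Nusap1, a spindle protein, fell from 4994 and 4132 to 1086 and 1560.1 (-1.74 ± 0.201) and the cyclin gene Ccnb1 from 12169.6 and 12650.1 to 4139 and 5188 (-1.37 ± 0.177). The kinase gene Cdk1 had a log2 fold change of -1.07 ± 0.165. The exceptions were Ckap2, a spindle protein, which rose from 4359 and 4093 to 9528 and 11958 (1.39 ± 0.139), and Spc25 of the kinetochore (0.57 ± 0.146).

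The promoter windows of these groups held short sequences known from cell cycle genes. TTTGAA, the core of the cell cycle homology region, was on either strand of 29 of the 40 promoters of G2 and mitosis genes (72.5%), against 20.2% of all 27025 promoters and 14.6% of those tested. CCAAT, the site of NF-Y, was in 31 of the 40 (77.5%), against 41.1% and 42.9%. Among 59 promoters of replication-dependent histone genes 50 held CCAAT (84.7%) and 35 held TATAAA, the box bound by TBP (59.3%), against 15.7% of all promoters and 9.59% of those tested, and TTTGAA was in 27 (45.8%). It was also in 6 of 14 promoters of the E2F family (42.9%) and in 5 of 11 of the efflux list (45.5%). CCAAT was as common in some other lists, with 16 of 18 promoters of cholesterol genes (88.9%) and 13 of 17 of hnRNP genes (76.5%). Replacement histone genes held it in 8 of 10 (80%). Genes of the 2-cell list held CCAAT in 7 of 8 promoters (87.5%) and TATAAA in 5 (62.5%). Genes called lower held TTTGAA in 26.6% and TATAAA in 18.8%, and genes called higher in 10.9% and 8.48%. The lists themselves hold some of the called genes, and the motifs searched can share letters. The stretches shown are Plk1 at chr7:122159401-122159484 on the plus strand, Fbxo5 at chr10:5805437-5805578 on the minus strand, Hist1h1e at chr13:23622560-23622630 on the minus strand and Hist1h2ab at chr13:23750971-23751072 on the plus strand. They are printed as examples of promoters of genes that fell, and capitals mark these 3 motifs or their reverse complements. Fbxo5 holds 2 more copies of ATTGG in small letters.
Plk1: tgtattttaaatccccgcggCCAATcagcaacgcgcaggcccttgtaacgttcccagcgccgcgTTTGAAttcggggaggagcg
Fbxo5: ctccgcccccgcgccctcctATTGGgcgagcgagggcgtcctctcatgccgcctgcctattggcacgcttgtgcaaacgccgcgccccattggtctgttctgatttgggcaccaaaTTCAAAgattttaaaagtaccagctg
Hist1h1e: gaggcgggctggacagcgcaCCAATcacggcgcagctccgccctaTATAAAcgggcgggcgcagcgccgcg
Hist1h2ab: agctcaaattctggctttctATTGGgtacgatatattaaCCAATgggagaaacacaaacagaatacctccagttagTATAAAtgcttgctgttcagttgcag

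DNA repair genes were listed by pathway. Among 31 tested genes of break signalling and end joining 3 rose and 15 fell, with a median of -0.30 (0.01, 4 and 9). The break kinases were slightly lower, with a log2 fold change of -0.56 ± 0.111 for Atm and of -0.73 ± 0.139 for Atr. Xrcc4, a cofactor of end joining, fell from 578 and 597 to 282 and 297 (-0.98 ± 0.209), and the clamp gene Hus1 fell (-0.92 ± 0.168). Rad50 of the break-sensing MRN complex rose from 2915 and 3324 to 4657 and 4997 (0.68 ± 0.128). Of 34 genes of homologous recombination and the Fanconi pathway 3 rose and 10 fell, with a median of -0.07 (0.25, 11 and 1). With a replicate block 6 rose. Brca1 (-0.53 ± 0.15) and Brca2 (-0.47 ± 0.15) fell slightly under TMM, while under total counts only 1 gene of the list fell. The nuclease scaffold Slx4 rose from 1457 and 1206 to 3115 and 2213 (1.05 ± 0.202). Among 39 genes of excision repair, mismatch repair and translesion synthesis 6 rose and 15 fell, with a median of -0.25 (0.06, 10 and 7). Beside Ercc5 and Polk, Xrcc1, a scaffold of base excision repair, rose from 905 and 861 to 1888 and 1926 (1.16 ± 0.122). Apex1, the main abasic site nuclease, fell from 4265 and 4642 to 1509 and 1451 (-1.54 ± 0.15).

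The targets of the drug are the type II topoisomerases. Top2a, the form of dividing cells, had 64070.4 and 57815 normalized counts in untreated replicates 1 and 2 and 26260.1 and 31798 in treated replicates 1 and 2. Top2b, the form found also in resting cells, had 5696 and 5693 untreated and 3800.1 and 3704 treated counts. Both were lower in each treated library (-1.02 ± 0.146 and -0.56 ± 0.111). Of 10 topoisomerases and Tdp enzymes 1 rose and 3 fell, with a median of -0.24 (0.07, 3 and 1). Of these 5 fell with a replicate block. Tdp2, which removes trapped topoisomerase II from DNA ends, fell (-0.58 ± 0.142), and the mitochondrial enzyme Top1mt rose from 241 and 217 to 830.5 and 789 (1.87 ± 0.179). In a list of 14 genes of efflux and anthracycline metabolism 13 were tested, 5 rose and 3 fell, with a median of 0.10 (0.42, 5 and 2). Abcb1b, a P-glycoprotein pump that exports doxorubicin, had 1769 and 2218 normalized counts in untreated replicates 1 and 2 and 7820.3 and 9869.5 in treated replicates 1 and 2. Its paralogue Abcb1a had 899.5 and 608 untreated and 1323 and 1235 treated counts. Both pumps were higher in each treated library (adjusted p = 1.07e-05 and 0.00647). The pump gene Abcg2 fell from 2849.8 and 3102 to 999 and 1237 (-1.37 ± 0.144) and Abcc1 from 1903 and 2266 to 1043 and 1101 (-0.91 ± 0.134), while Abcc5 rose from 3468 and 2923 to 6368 and 5682 (0.96 ± 0.13).

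**Figure D3:**
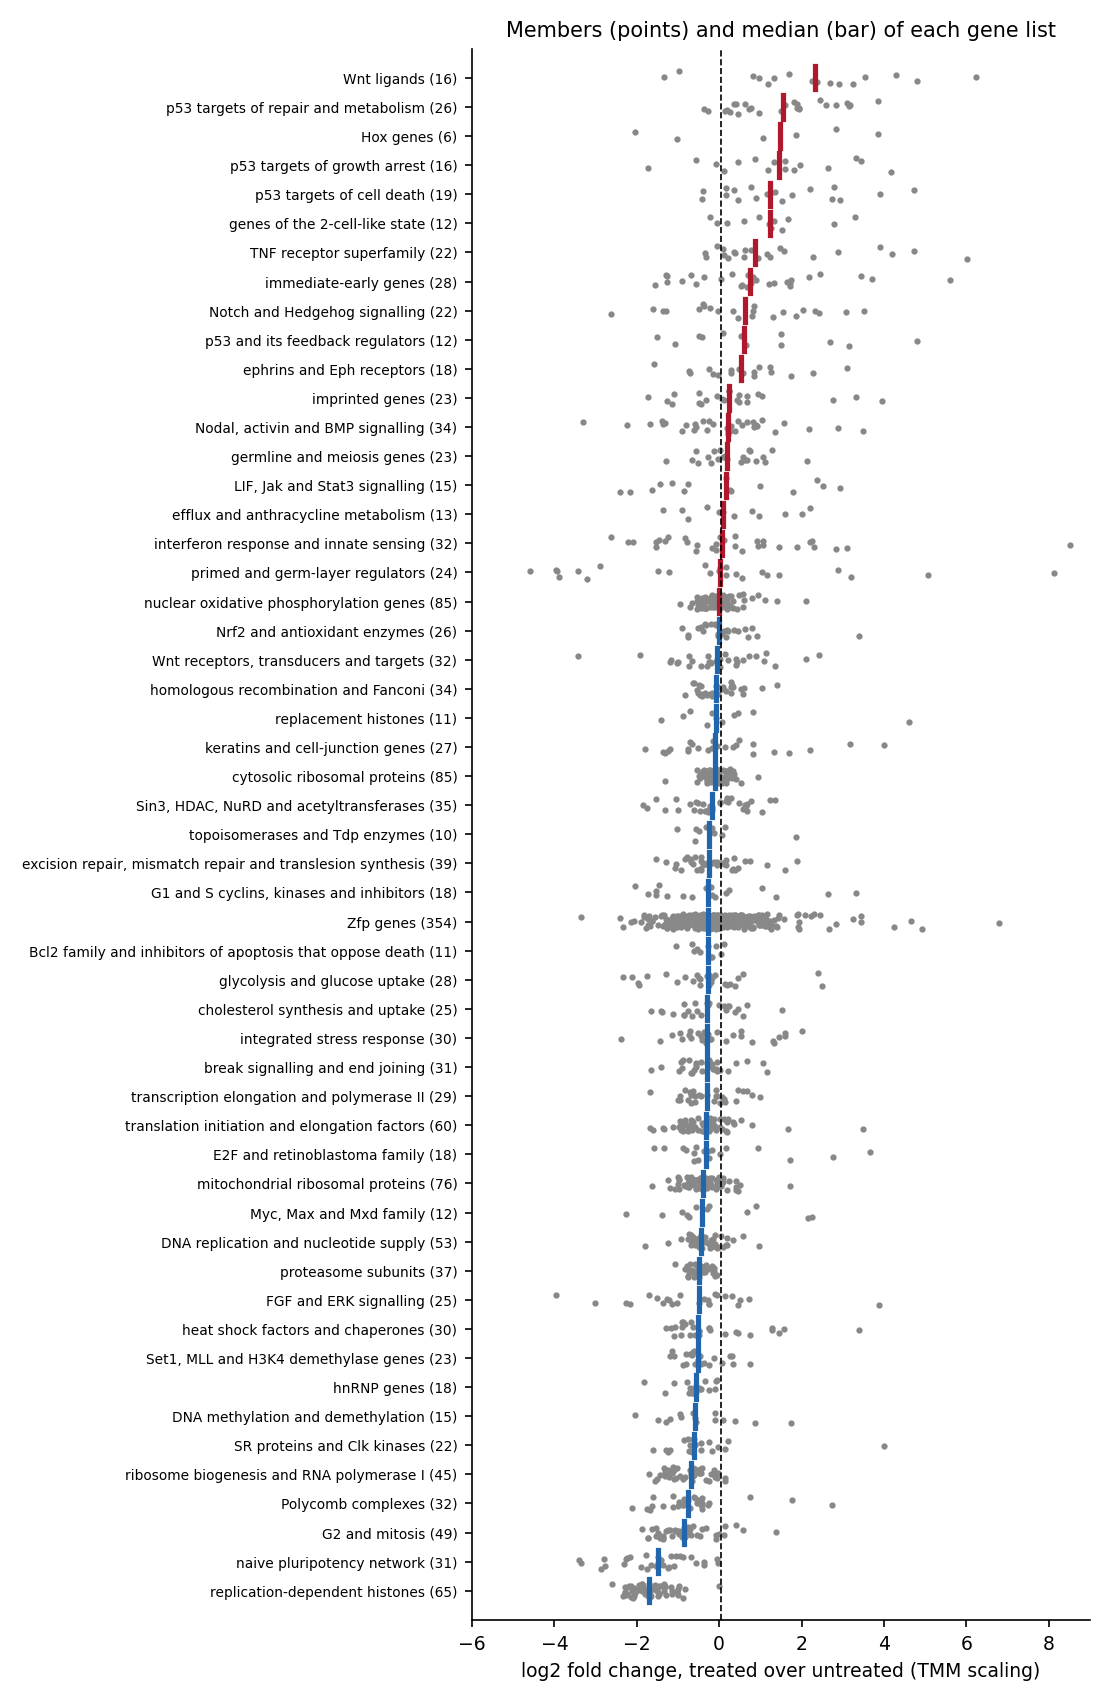
Log2 fold change (TMM) of each tested member of the gene lists (points) and the median of each list (bar), with the number tested in parentheses and the median of all genes as a dashed line. Medians run from 2.33 for Wnt ligands to -1.71 for replication-dependent histones, and 17 of the medians change sign under scaling by total counts, all of them within 0.31 of 0 under TMM.

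Other stress pathways were listed as well. Of 30 genes of the integrated stress response 7 rose and 7 fell (23.3% each, near the shares of all genes), with a median of -0.29 (0.02, 9 and 6). Atf4, its central factor, fell from 3567 and 4868 to 1651 and 2067 (-1.13 ± 0.176). Ddit3, the death-promoting factor Chop, rose from 114 and 112 to 237 and 314 (1.34 ± 0.254), and the pseudokinase gene Trib3 from 132 and 139 to 415 and 303 (1.45 ± 0.241). Genes of the unfolded protein response of the endoplasmic reticulum are in this list and in the next. Xbp1, its transcription factor, had 2194 and 1364 normalized counts in untreated replicates 1 and 2 and 358 and 306 in treated replicates 1 and 2. Hspa5, the chaperone BiP, had 31438 and 31209 untreated and 10528 and 11918 treated counts. All treated values were below the untreated ones (-2.38 ± 0.242 and -1.43 ± 0.175). Among 30 heat shock factors and chaperones 6 rose and 18 fell (60.0%), with a median of -0.51 (-0.19, 8 and 11). The constitutive chaperone genes Hspa8 (-1.17 ± 0.169), Hsp90b1 (-1.07 ± 0.151) and Cct3 (-1.10 ± 0.152) fell. The inducible Hspa1a rose from 69.7 and 52.1 to 629 and 615 (3.39 ± 0.356), and its near-identical copy Hspa1b also rose (1.29 ± 0.342), so the split of counts between them is uncertain. The small heat shock protein gene Hspb8 rose from 332 and 326 to 726 and 822 (1.28 ± 0.168).

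In a list of 26 genes of the Nrf2 and antioxidant response 5 rose and 4 fell, with a median of -0.00 (0.31, 11 and 1). Hmox1, the heme oxygenase, rose from 548 and 729.7 to 976 and 1352 (0.91 ± 0.196) and Gclc, of glutathione synthesis, from 3108 and 3112 to 4521 and 5935 (0.80 ± 0.144). Glutathione reductase, Gsr, fell (-0.76 ± 0.127). Nfe2l2, the gene of Nrf2, had 1436 and 1459 untreated and 2025 and 1821 treated counts and a log2 fold change of 0.46 ± 0.172 with an adjusted p of 0.0512 (0.0143 with a replicate block). Among 36 genes of the interferon response and innate sensing 32 were tested, 11 rose and 7 fell (34.4% and 21.9%), with a median of 0.06 (0.38, 12 and 5). Over the 23 counted in untreated Cfp1−/− cells 7 rose and 6 fell, with a median of -0.07. Stat2, a transducer of interferon signals, rose from 360.2 and 245 to 697 and 538 (1.07 ± 0.23). The adhesion gene Icam1 rose from 2219 and 1362 to 3508 and 3218 (0.95 ± 0.219) and the NF-κB inhibitor Nfkbia from 236 and 256 to 427 and 468 (0.91 ± 0.249). Ddx58, the RNA sensor RIG-I, fell from 1246 and 892 to 237 and 247 (-2.10 ± 0.241) and the factor Irf1 from 846 and 1829.5 to 335 and 553 (-1.54 ± 0.37).

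Naive ES cells take up much glucose. In a list of 28 genes of glycolysis and glucose uptake 3 rose and 8 fell, with a median of -0.28 (0.04, 8 and 8). Of these 5 rose with a replicate block. Slc2a3, a glucose transporter, had 22678 and 27719.8 normalized counts in untreated replicates 1 and 2 and 3415 and 6332 in treated replicates 1 and 2. Hk2, the hexokinase of growing cells, had 12982 and 12583 untreated and 3365 and 3059.9 treated counts. Pdk1, which keeps pyruvate from the mitochondria, had 11119.7 and 9778 untreated and 2537 and 2139 treated counts. The treated values were a fraction of the untreated ones (-2.32 ± 0.276, -1.95 ± 0.176 and -2.11 ± 0.181). The lactate exporter Slc16a3 fell from 2241 and 3478 to 559 and 849 (-1.97 ± 0.455). The most abundant member, the pyruvate kinase gene Pkm2, did not pass the test (-0.30 ± 0.167). Of 25 tested genes of cholesterol synthesis and uptake 3 rose and 11 fell, with a median of -0.29 (0.02, 7 and 6). The oxidase gene Sqle fell from 2512 and 2746 to 720.5 and 882 (-1.67 ± 0.167) and the demethylase gene Cyp51 from 2927 and 2819 to 858 and 1247 (-1.40 ± 0.198). Scap, the escort of the sterol-sensing factors, rose from 598 and 649 to 1757 and 1750.2 (1.54 ± 0.137).

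Ribosomal protein genes and the genes that build ribosomes were listed apart. Of 85 cytosolic ribosomal protein genes 3 rose and 5 fell (1 and 9 in DESeq2), with a median of -0.09 (0.22, 17 and 1). The replicate block gave 5 and 13. Of 45 tested genes of ribosome biogenesis and RNA polymerase I none rose and 31 fell (68.9%) at an adjusted p under 0.05 in edgeR (the 0 is also 0 in DESeq2 and unadjusted), with a median of -0.68 (-0.36, 2 and 23). Gnl3, the nucleolar GTPase nucleostemin, had 13085 and 13302 normalized counts in untreated replicates 1 and 2 and 3871 and 3942 in treated replicates 1 and 2. Nop58, a core protein of methylation snoRNPs, had 24825 and 23652 untreated and 7974 and 9246 treated counts. The methyltransferase gene Nop2 had 6391 and 6689 untreated and 2129 and 2311 treated counts. Replicates lay close together and the treated ones far lower (-1.71 ± 0.123, -1.45 ± 0.134 and -1.51 ± 0.141). Npm1, the most abundant member, fell by a smaller amount (-0.63 ± 0.169), and Ncl, the nucleolin gene, overlapped between the groups (-0.19 ± 0.245). Of 60 tested translation factors 4 rose and 27 fell, with a median of -0.33 (-0.01, 12 and 17). The list was built by symbol and includes the Eif2ak kinases and the Eif2c Argonautes. Eif4a2, an initiation helicase, fell from 21776 and 22332 to 6497 and 6924 (-1.67 ± 0.122) and Eif4b, its cofactor, from 28142 and 28918 to 11526 and 10417 (-1.33 ± 0.122). The kinase gene Eif2ak4, or Gcn2, rose (0.80 ± 0.138).

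Mitochondrial genes of nuclear origin were listed by role. Of 85 tested genes of oxidative phosphorylation 8 rose and 10 fell, with a median of 0.01 (0.32, 23 and 2), near that of all genes. Ndufs1 of complex I fell (-0.72 ± 0.134) and Cox6b2, the testis form of a cytochrome oxidase subunit, rose from 285 and 143 to 1089.9 and 722 (2.12 ± 0.311). The tables held none of the genes encoded by mitochondrial DNA. Of 76 tested mitochondrial ribosomal protein genes 2 rose (1 in DESeq2) and 36 fell (47.4%), with a median of -0.39 (-0.07, 8 and 13). Mrps18b of the small subunit fell from 1256 and 1353 to 393 and 421 (-1.63 ± 0.169), and Mrps6 rose from 175 and 200.2 to 658 and 531 (1.71 ± 0.212). Of 37 tested proteasome subunits none rose and 20 fell (54.1%) at an adjusted p under 0.05 in edgeR (the 0 is also 0 in DESeq2 and unadjusted), with a median of -0.48 (-0.17, 0 and 6). Psmc6, an ATPase of the regulatory particle, had 7969 and 8097 untreated and 3101 and 4256 treated counts (-1.08 ± 0.163).

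Splicing regulators were listed by family. Of 22 SR proteins and Clk kinases 1 rose and 14 fell (63.6%), with a median of -0.62 (-0.30, 3 and 9). Srsf3, a splicing activator of the SR family, had 15677 and 15353 normalized counts in untreated replicates 1 and 2 and 5138 and 4708 in treated replicates 1 and 2. Srsf1, a second one, had 33008 and 33406 untreated and 12486 and 13636 treated counts. Both were lower in each treated library (-1.61 ± 0.147 and -1.30 ± 0.173). Srsf12, an SR protein of low level, rose from 38.2 and 38.6 to 551 and 653 (4.01 ± 0.218). Of 18 hnRNP genes none rose and 13 fell (72.2%) at an adjusted p under 0.05 in edgeR (the 0 is also 0 in DESeq2 and unadjusted), with a median of -0.57 (-0.26, 0 and 5), led by Hnrnpr, from 5693 and 5424 to 1645 and 1369.9 (-1.84 ± 0.173). Of 29 tested genes of transcription elongation and RNA polymerase II 4 rose and 15 fell, with a median of -0.30 (0.01, 6 and 5). Aff4, the scaffold of the super elongation complex, fell from 13834 and 13745 to 4337 and 4027 (-1.68 ± 0.145) and the elongation kinase gene Cdk12 from 10408 and 9216 to 5258 and 4328 (-0.99 ± 0.169). The kinase gene Cdk9 of P-TEFb rose (0.59 ± 0.164), as did its inhibitor Hexim1, from 1618 and 1365 to 2464 and 2529 (0.79 ± 0.158). Polr2a, the gene of the largest subunit of RNA polymerase II, had overlapping groups (0.45 ± 0.328).

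Of 23 genes of the Set1 complexes, to which Cfp1 belongs, of the MLL complexes and of H3K4 demethylases, 1 rose and 13 fell (56.5%), with a median of -0.51 (-0.20, 3 and 6). None was called. Wdr82, a subunit of the Set1 complexes, fell from 6487 and 5887 to 2507 and 2711 (-1.20 ± 0.174), and Wdr5, shared by all of these complexes, from 6536 and 5333 to 3288 and 3019.8 (-0.87 ± 0.143). The catalytic subunit genes Setd1a (0.26 ± 0.189) and Setd1b (-0.58 ± 0.503) did not pass the test, the latter with an adjusted p of 0.371 (0.0225 with a replicate block). Of 32 Polycomb genes 3 rose and 20 fell (62.5%), with a median of -0.76 (-0.45, 3 and 13). Cofactors that guide the complex PRC2 to DNA were among the steepest falls. Jarid2 had 26433 and 18890.3 normalized counts in untreated replicates 1 and 2 and 8622 and 4311 in treated replicates 1 and 2. Mtf2 had 25232 and 19460.5 untreated and 7452 and 6880.3 treated counts. Both were lower in each treated library (-1.76 ± 0.375 and -1.59 ± 0.18). The core gene Suz12 fell from 9579 and 8124 to 3866 and 2761 (-1.37 ± 0.272) and the methyltransferase gene Ezh2 from 5363 and 5188 to 2937 and 2725 (-0.85 ± 0.183). Phf1, a relative of Mtf2, rose from 67.1 and 60.5 to 464 and 360.2 (2.73 ± 0.235), and Phc2 of PRC1 from 189 and 301 to 849 and 757 (1.76 ± 0.301).

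Among 35 genes of Sin3, HDAC and NuRD complexes and of acetyltransferases 9 rose (25.7%) and 10 fell (28.6%), with a median of -0.18 (0.14, 11 and 7). The scaffold genes of the Sin3 complex moved apart, Sin3a down from 11868 and 9894 to 4671 and 3743 (-1.33 ± 0.16) and Sin3b up from 2186 and 2309 to 3217 and 3731 (0.67 ± 0.125). The acetyltransferase gene Kat2b fell from 3732 and 2862 to 1011 and 753 (-1.86 ± 0.218) and the corepressor gene Rcor2 from 3526 and 2117 to 923 and 698 (-1.76 ± 0.248). Of 15 genes of DNA methylation and demethylation 2 rose (1 in DESeq2) and 7 fell, with a median of -0.59 (-0.28, 3 and 5). The enzymes that oxidize methylcytosine differed. Tet2 had 12505 and 6433 normalized counts in untreated replicates 1 and 2 and 3042 and 1402 in treated replicates 1 and 2, lower in both treated libraries (-2.05 ± 0.444). Tet3 had 410.3 and 551 untreated and 1585 and 1525 treated counts, higher in both (1.74 ± 0.17). Tet1, the most abundant, had 45872 and 24803 untreated and 25649.7 and 9918 treated counts with overlapping groups (-0.95 ± 0.424, adjusted p = 0.0928). Within each replicate number the treated library was lower, and with a replicate block the adjusted p was 0.00046. The maintenance methyltransferase gene Dnmt1 did not pass the test (0.09 ± 0.123).

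Of 39 Hox genes 6 were counted highly enough to be tested, of which 2 rose and 1 fell, with a median of 1.47 (1.78, 3 and 1). The medians of replicates 1 and 2 taken singly were 0.68 and 1.45. Over the 4 counted in untreated Cfp1−/− cells 2 rose and 1 fell, with a median of 1.96. Hoxc13, a factor of hair and nail, rose from 15.3 and 13.6 to 241 and 168 (3.85 ± 0.388). Of 30 imprinted genes 23 were tested, 4 rose and 5 fell (17.4% and 21.7%, not above the shares of all genes), with a median of 0.23 (0.55, 9 and 4). Magel2 rose from 27.2 and 43.8 to 567 and 486 (3.95 ± 0.372) and Zim1 from 46.7 and 37.5 to 456 and 373 (3.33 ± 0.277), both from low levels, and the ubiquitin ligase gene Ube3a fell from 10625 and 10689 to 4101 and 4499.6 (-1.26 ± 0.126). The large class of genes named Zfp, mostly zinc finger proteins, had 354 tested members, of which 60 rose (16.9%) and 111 fell (31.4%), with a median of -0.27 (0.04, 92 and 59). Zfp57, a keeper of imprints, fell from 11637 and 6267 to 2789 and 1138 (-2.15 ± 0.441). Zfp750, an epidermal factor, rose from 55.2 and 38.6 to 1636 and 1139.7 (4.92 ± 0.28), and Zfp365 from 606 and 768 to 7303 and 7293 (3.46 ± 0.148). Of 27 keratin and cell-junction genes 4 rose and 7 fell, with a median of -0.09 (0.22, 8 and 5). The replicate block gave 8 rises. The desmosome gene Pkp3 rose from 54.4 and 68.8 to 491 and 579.9 (3.17 ± 0.221). The gap junction gene Gja1 fell from 7951 and 12529 to 3207 and 5113 (-1.25 ± 0.263) and the adhesion gene Cdh1 from 12826 and 18164 to 7414 and 10226 (-0.77 ± 0.216). Krt8 had 906 and 2421 untreated and 693 and 2176 treated counts, a difference between replicates larger than that between groups.

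The direction of the response followed the level of the gene. To keep the ranking apart from the libraries compared, the 15758 genes were sorted by counts per kb of exon in untreated Cfp1−/− cells into 5 equal classes. The share called higher was 2.44% in the lowest class, where few genes reach the count limit, then 9.68%, 9.24%, 3.27% and 0.889% in the highest. The share called lower was 0.0635%, 0.730%, 1.87%, 3.62% and 7.74%. The mean used for the count limit includes the treated libraries. In the low classes a gene that rises therefore reaches it more easily than one that falls. By adjusted p alone, without that limit, 49.4%, 35.9%, 27.0%, 14.5% and 5.68% rose from the lowest to the highest class. On the same rule 2.29%, 6.41%, 16.1%, 32.0% and 52.2% fell. Median log2 fold changes ran from 1.69 in the lowest class through 0.51, 0.10 and -0.20 to -0.46 in the highest, and under total counts from 1.99 to -0.15, where the fourth class changes sign (0.11). Genes in the lowest class could enter the test through the treated group alone, and over its 1396 members counted in both untreated Cfp1−/− libraries the median was 1.00. Each WT replicate pair gave the same order, with 1.45 and 1.42 in the lowest and -0.56 and -0.46 in the highest class.

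**Figure D4:**
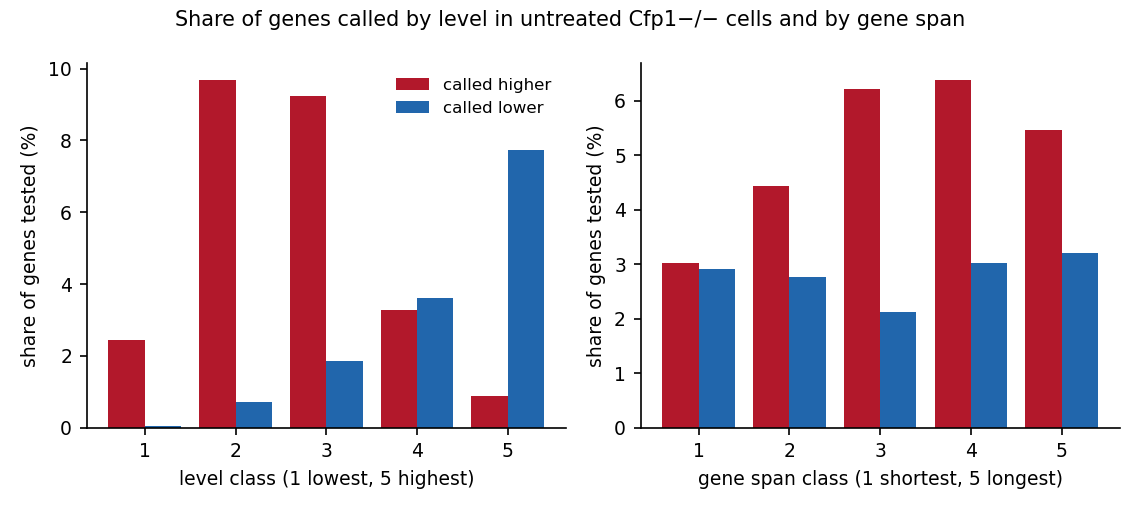
Percent of the genes tested that were called higher (red) or lower (blue) in treated WT cells, by 5 classes of level in untreated Cfp1−/− cells (left) and 5 classes of gene span (right), with bars from 0. The share called lower rises with level to 7.74%, and scaling by total counts lowers the total called lower from 442 to 201.

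Gene length and structure were compared as well. By span on the chromosome the median log2 fold change was 0.10 in the shortest and 0.06 in the longest of 5 classes, with 0.05, 0.01 and 0.04 between them, and under total counts 0.42 and 0.38. The share called higher was 3.01% in the shortest class and between 4.44% and 6.38% in the others, and the share called lower ran from 2.13% to 3.20%. Within the second class of level the share called higher ran from 3.07% in genes of the shortest span to 16.1% in those of the fourth class of span. It was 10.8% in those of the longest span. The median log2 fold changes of these genes were 0.31, 0.73 and 0.43, in the same order. Level was ranked per kb of exon, but the count limit applies to the whole gene. Genes with more exonic sequence therefore reach the limit more easily at the same level. Within the fourth class of level the share called higher lay between 3.03% and 3.51%, and within the highest between 0.232% and 1.84%. Genes called higher had a median of 12 exons, against 9 for those called lower and for all genes tested. The median exon length of those called higher was 4443 bases, against 3837 for those called lower and 3534.5 for all. The count limit bears on both comparisons. Over 5 classes of exon number the median log2 fold change of all genes tested lay between 0.03 and 0.15. Genes with 1 exon made up 1.37% of those called higher, 10.4% of those called lower and 4.80% of all, and replication-dependent histone genes are among them. Without the histone genes the 696 remaining genes with 1 exon had a median log2 fold change of 0.19.

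Chromosomes differed by small amounts around the median of all genes. The 572 tested genes of the X chromosome had in the pooled fit the lowest median among the chromosomes with at least 100 tested genes, -0.28 under TMM and 0.02 under total counts, so that it lay below that of all genes by a like amount in both. Of these genes 11.0% rose and 26.9% fell. Chromosome 13 followed with -0.27 (0.04 under total counts), and 33.6% of its 613 genes fell. It holds the largest cluster of histone genes, and over its other 560 genes the median was -0.19. The highest medians were 0.18 on chromosome 7 (0.50) and 0.16 on chromosome 11 (0.47). The medians of replicates 1 and 2 taken singly were -0.31 and -0.26 on the X chromosome, -0.35 and -0.29 on chromosome 13, and 0.14 and 0.11 on chromosome 7.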

How the data were processed

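RNA from 4 WT libraries (2 untreated, 2 treated with 1 μM doxorubicin for 6 hours) and 4 Cfp1−/− libraries was sequenced by the authors, who aligned reads with STAR 2.2.1 to mm9 (NCBIm37) and counted them per gene with HTSeq. The STAR version is that of the deposited processing notes, and the methods of the paper give another. The deposited tables hold a count for each technical replicate, and the signal column, as the authors made it with DESeq, holds the count divided by a size factor. Members and lists were chosen with earlier results of these data known. Technical replicates were summed. Of 22375 genes, 15758 passed the filter of edgeR 4.0.16 (R 4.3.3) and were tested by quasi-likelihood with TMM scaling over 4 groups of 2 libraries, with p-values adjusted over all genes tested and a common dispersion of 0.0304. The libraries held 14880589 to 29422711 counts on genes. Named genes are the 12 steepest called rises and falls with a mean of at least 1000 counts, the 5 that gained or lost most counts, and up to 4 per list and direction with the first 2 members and the most abundant. Replicates of the same number correlated across groups (0.1398 to 0.4507 over 6 pairs of groups), so a replicate block was tried. The other alternatives were total counts, the size factors and Wald test of DESeq2 1.42.0, other limits and filters, WT libraries alone, and libraries or technical replicates left out. The scripts were tested on simulated data. No per-sample column was left out.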

Additional observations from a re-analysis of the deposited data

Results flagged for a closer look

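The response to doxorubicin was compared between WT and Cfp1−/− cells by an interaction term in edgeR. The test gave a difference with an adjusted p under 0.05 for 5 of the 398 named genes and for 37 of the 15758 genes tested. Many named genes were chosen for the size of their WT response, which enters this difference. That choice favours a smaller response in Cfp1−/− cells and a larger share of differences among the named genes. Values below are log2 differences, Cfp1−/− response minus WT response, and normalized counts in Cfp1−/− replicates 1 and 2.

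Scn3b rose in WT cells by 5.47 and had 264 and 232 counts in untreated and 3074 and 3339 in treated Cfp1−/− cells. The difference was -1.74 ± 0.213 (adjusted p = 0.0317, 0.00310 with a replicate block). Galnt6 had 1088 and 1161 counts in untreated and 3729.7 and 3807 in treated Cfp1−/− cells. Its rise was smaller there by a log2 difference of -2.02 ± 0.222 (adjusted p = 0.0259, 0.00155 with the block).

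Zfp750 had 261 and 202 counts in untreated and 1157 and 993 in treated Cfp1−/− cells, with a difference of -2.66 ± 0.350 (adjusted p = 0.0317, 0.00103 with a replicate block). All 3 genes started from higher counts in untreated Cfp1−/− than in untreated WT cells.

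Sfmbt2 had 552 and 450.4 counts in untreated and 251 and 216 in treated Cfp1−/− cells, so its fall was smaller there, with a difference of 2.05 ± 0.292 (adjusted p = 0.0338, 0.00415 with a replicate block). Mycn had 1856 and 2551 counts in untreated and 133 and 131 in treated Cfp1−/− cells. Its fall was larger there, with a difference of -1.76 ± 0.277 (adjusted p = 0.0489, 0.00280 with the block). Sfmbt2 and Mycn both started from lower counts in untreated Cfp1−/− than in untreated WT cells. The untreated WT counts were 4698 and 6776 for Sfmbt2 and 4728 and 5754 for Mycn. Without the second technical replicates of treated replicate 1 the adjusted p for Mycn was 0.0573. Groups of 2 libraries were not tested for samples far from the others.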

How the results depend on the processing

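The counts of 804 genes called higher and 442 called lower stayed within 1.5 times under most alternatives. The exceptions for higher genes were 2772 without a mean count limit. For lower genes they were 201 with total counts, 952 with a fold change limit of 2 and 670 without a mean count limit, and these limits admit more genes by construction. By adjusted p alone 1836 genes were lower with total counts in place of 3433, as this scaling shifts all log2 fold changes by 0.31. With a replicate block 805 and 448 genes were called, and 4692 and 4115 by adjusted p, and the list counts that it moved by more than 1.5 times are given with those lists.

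Leaving out each WT replicate in turn gave 774 to 826 genes called higher and 443 to 526 lower, and by adjusted p alone 3348 to 3636 higher and 2657 to 2929 lower. The lone library is then assumed to vary like the other groups. Genes counted in untreated Cfp1−/− cells, an alternative chosen after seeing the data, gave 798 and 442 calls of 13923 tested, with 3222 higher and 3412 lower by adjusted p.

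None of the 398 named genes passed the test in opposite directions under any alternative run, and 355 had an adjusted p under 0.05. The sign of a log2 fold change between -0.31 and 0 can turn under total counts. With total counts 45 lost and 7 gained the test's threshold, and the medians of 17 lists changed sign. List medians that changed sign numbered 6 without treated WT replicate 2, 2 without treated replicate 1, 3 without either untreated replicate, 2 each with DESeq2's test, its size factors or without second technical replicates, 1 each without a filter or with WT libraries alone, and 0 with the replicate block. Without 1 replicate 41 to 55 lost it, with the WT libraries alone 19, with DESeq2's Wald test 8, with its size factors 5, without a filter 6, without second technical replicates 6, and with the replicate block 0, where 10 gained it. Of these the report gives Myc, Nfe2l2, Setd1b and Tet1 with that p. It also gives that p for Eomes, Mthfd1, Notch2 and Notch4. Not all of the 10 are marked where they are described. The cause was not tested. Groups of 2 libraries and the lower depth of treated libraries limit what can be seen among genes with few counts.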
